A study of Caenorhabditis elegans with 2 samples.

Results

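The histone genes of Caenorhabditis elegans were taken as the protein-coding genes whose symbol is his- followed by a number, which gave 72 of 19973 protein-coding genes. Histones are the proteins around which DNA is wound. Core histones H2A, H2B, H3 and H4 make up the nucleosome, linker histone H1 sits on the DNA where it enters and leaves it, and H3.3 is an H3 variant that is laid down outside of DNA replication. Most core histone genes of animals are made for S phase, lie in clusters as divergent pairs, and exist in many near-identical copies, whereas H3.3 genes stand apart from the clusters. Of the 72 genes, 17 were annotated as H2A, 16 as H2B, 20 as H3 (H3.3 included), and 16 as H4. The gene his-24, annotated as Histone 24, is the known H1 gene of the list. The products of his-73 and his-39 were annotated as histone-domain proteins without a class.

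The assay was ChIP-seq, in which DNA bound by a protein is pulled down with an antibody and sequenced, of a green fluorescent protein-tagged transcription factor in whole larvae of the first stage (L1), labelled as mixed sex, in 2 biological replicates of 1 group. Both came from 1 strain, OP355, with the genotype unc-119(tm4063) III and the transgene wgIs355, and had a size range of 150 to 350 in the labels. The antibody and source fields name the target mdl-1, a Mad-like basic helix-loop-helix protein that pairs with a Max homologue and binds the E-box CACGTG, whereas the description names ZK337.2. There was no second condition. The sources used here do not give the promoter that drives the tagged protein or the tissues that make it. The strongest pooled region lay 97 bp upstream of the 5' end of mdl-1 itself, with a signal of 503.3, and was also first in both replicate lists.

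The deposited lists hold regions with a signal value and a summit, a point marked within the region. There were 30000 regions in the pooled list and in each replicate list, which are relaxed lists that include weak regions, and 259 in a thresholded list. The lowest signal was 15.98 in the pooled list, 10.005 for replicate 1, 8.30 for replicate 2 and 49.8 in the thresholded list. No read counts are given, so the depth of each library is unknown, and signals were compared within a list and ranks between lists. A gene was said to have a summit when one lay from 1000 bp upstream to 500 bp downstream of its 5' end. All coordinates are in WBcel235 (ce11).

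A pooled summit was found at 9 of the 72 histone genes (12.5%), against 42.7% of all protein-coding genes. These were his-72, his-37, his-35, his-41, his-42, his-24, his-74, his-59 and his-60, and they shared 7 regions. Summits of the replicate 1 list were found at 7 histone genes, where 42.1% of all genes had one, and of the replicate 2 list at 13, where 40.9% had one. Summits of both replicates at most 200 bp apart were found at 6 genes (8.33%; all genes 11.9%), namely his-72, his-37, his-35, his-41, his-24 and his-74. In 58 histone genes (80.6%) none of the 3 relaxed lists had a summit, against 34.8% of all genes. The 9 genes with a pooled summit had a median best signal of 28.9 and a median rank of 3026, beside 21.1 and 13184 over all genes with a pooled summit.

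**Figure D1:**
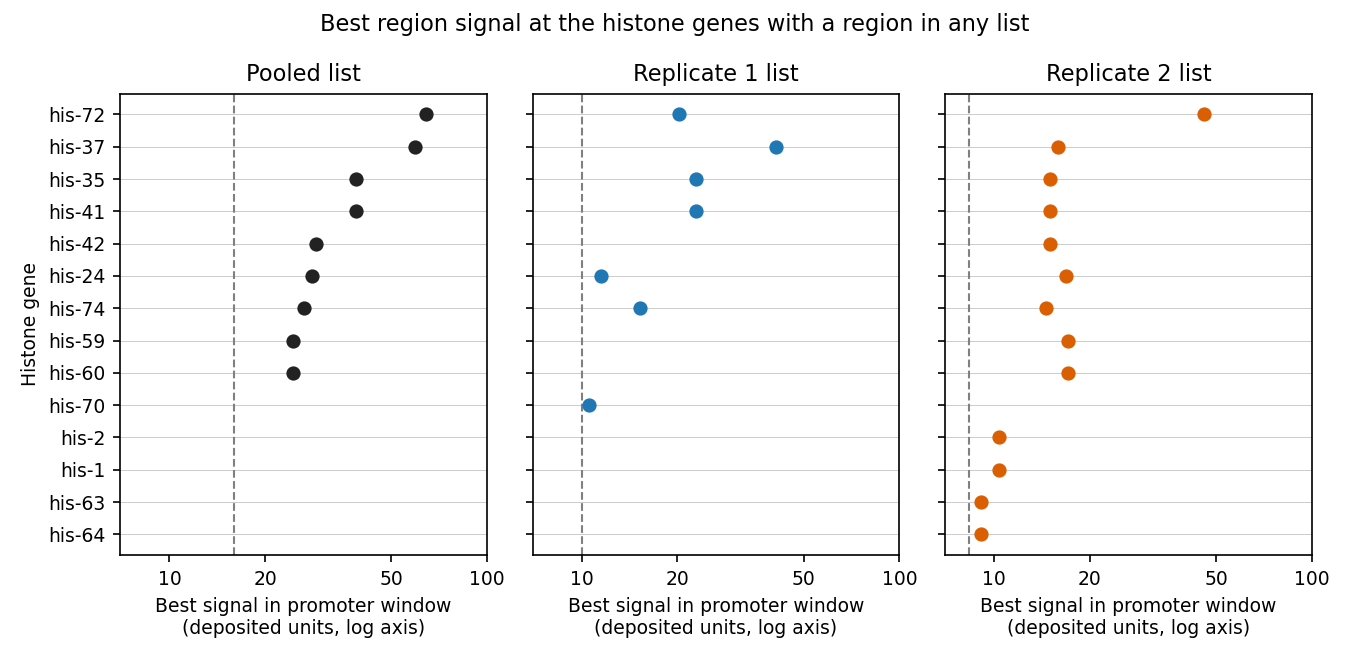
Best signal of a region in the promoter window (horizontal, log axis, deposited units) for the 14 histone genes with a region in any relaxed list, one panel for each list; the dashed line is the lowest signal of that list. The H3.3 gene his-72 led the pooled and the replicate 2 lists, and the H4 gene his-37 led the replicate 1 list, while 5 genes at the bottom had a region in 1 replicate list alone.

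The sequences at these summits differ in kind, and those at his-72, his-37 and his-24 are shown so that the short sequences in them can be compared. The summits of his-72 and his-37 were the strongest. That of his-24 (rank 3457) was weaker than those of his-35/his-41 (rank 612) and his-42 (rank 3026), which are not shown here. Each stretch runs 5′ to 3′ in the direction of the named gene. For his-72 and his-37 it covers 50 bases either side of the pooled summit, and for his-24 the last 60 bases before the annotated 5' end. Capitals mark the E-box CACGTG, its variant CATGTG, the TATA box sequence TATAAA, or CTCCNCC, the core of a C-rich element known from histone promoters of this worm.
his-72, chrIII:12369092-12369192, minus strand: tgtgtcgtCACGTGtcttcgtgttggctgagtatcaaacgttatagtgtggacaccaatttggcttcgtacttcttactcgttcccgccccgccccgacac
his-37, chrV:9546970-9547070, plus strand: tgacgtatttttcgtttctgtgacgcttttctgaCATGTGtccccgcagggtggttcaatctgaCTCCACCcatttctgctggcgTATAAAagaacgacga
his-24, chrX:14490034-14490093, plus strand: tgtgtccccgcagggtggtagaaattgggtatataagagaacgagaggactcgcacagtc
The his-72 stretch holds a CACGTG and no TATAAA or CTCCNCC. The his-37 stretch holds 1 each of the E-box variant, the C-rich core and the TATA box sequence, in that order towards the gene. The his-24 stretch holds none of the searched sequences, but it begins with a run of bases that also lies in the his-37 stretch.

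The H3.3 gene his-72 had the strongest region of any histone gene. It lies on the minus strand at chrIII:12367475-12369050, and the pooled region at chrIII:12368972-12369311 had a signal of 64.3 (rank 146), with its summit in intergenic sequence 92 bp upstream of the 5' end. The replicate 1 signal was 20.2 (rank 1834, 159 bp upstream) and the replicate 2 signal was 45.6 (rank 86, 83 bp upstream). The rank was thus much higher in replicate 2, and in both lists the summit lay just upstream of the gene. Replicate 1 had another 3 weak regions in the window, of which the strongest, with a signal of 12.9, had its summit in an intron of his-72.

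The H4 gene his-37 showed the opposite order of replicates. It lies on the plus strand at chrV:9547105-9547607, and its pooled region at chrV:9546850-9547189 had a signal of 59.5 (rank 179) with the summit 85 bp upstream, in intergenic sequence. The signal was 40.9 in replicate 1 (rank 87, 76 bp upstream) and 15.9 in replicate 2 (rank 3536, 85 bp upstream). The pooled and replicate 2 summits fell on the same base.

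The regions of his-72 and his-37 were the histone gene regions in the thresholded list, so 2 of 72 histone genes (2.78%) had a thresholded summit, against 0.721% of all genes. Each rested more on 1 replicate. Among the 259 strongest regions of replicate 1 there was 1 histone gene, his-37 (all genes 0.616%), and among the 259 strongest of replicate 2 there was 1, his-72 (all genes 0.641%).

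The genes his-35 (H2A) and his-41 (H2B) share 1 region and lie next to his-37 on chromosome V, in a locus of 2949 bp that holds these 3 histone genes. They are transcribed away from each other, and 247 bases separate their 5' ends. The pooled summit of the region chrV:9545496-9545835 had a signal of 38.6 (rank 612) and lay not between them but 130 bp inside his-41, in its coding exon, which is 378 bp upstream of his-35. The replicate signals were 22.9 (rank 826) and 15.0 (rank 4527) for replicates 1 and 2, with summits 6 bp apart. The summit also lay 426 bp upstream of the 5' end of another gene, C50F4.6, so it cannot be assigned to 1 of the 3 genes by position. Of the clustered core histone genes, those of this locus were the ones with summits of both replicates.

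The linker histone gene his-24 lies on the plus strand at chrX:14490094-14491119. Its pooled region at chrX:14489914-14490253 had a signal of 28.2 (rank 3457) and a summit 10 bp upstream of the 5' end, inside an exon of the non-coding RNA gene M163.19. Replicate 1 gave a signal of 11.5 (rank 21337, 68 bp upstream) and replicate 2 a signal of 16.8 (rank 2629, 12 bp upstream). The replicate 1 region was thus a weak one in its list.

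The H3.3-like gene his-74 lies on the minus strand at chrV:12659704-12660330. Its pooled region had a signal of 26.5 (rank 4861), with the summit 825 bp upstream in intergenic sequence, far from the gene compared with those of his-72, his-37 and his-24. The replicates gave 15.2 (rank 7985) and 14.6 (rank 5250), with summits 781 and 878 bp upstream. The 5' end of another protein-coding gene lies nearer to the pooled summit, so its position does not assign it to his-74.

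The remaining pooled summits were absent from the replicate 1 list. The H4 gene his-60 and the H3 gene his-59, a divergent pair on chromosome IV, shared a region at chrIV:7487686-7488025 with a pooled signal of 24.6 (rank 7005) and a replicate 2 signal of 17.1 (rank 2418). Its summit lay in the coding exon of his-60, 136 bp downstream of the 5' end of that gene and 393 bp upstream of his-59. The H3 gene his-42 had a pooled signal of 28.9 (rank 3026) and a replicate 2 signal of 15.0 (rank 4608) at chrII:13829309-13829648. That summit lay 782 bp upstream of his-42 and inside the small nuclear RNA gene C47F8.9 and the non-coding RNA gene R05D7.8, and 33.1% of the 30-base words of the region occur once in the reference.

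Another 5 genes had a summit in 1 replicate list and none in the pooled list. The H3.3-like gene his-70 had a replicate 1 signal of 10.5 (rank 26847) with the summit 229 bp downstream of the 5' end, in its coding exon. The pair his-2 (H3) and his-1 (H4) shared a replicate 2 region with a signal of 10.3 (rank 17951), and the pair his-63 (H3) and his-64 (H4) shared one with a signal of 9.09 (rank 24864). Both replicate 2 summits lay between the 5' ends of the pair. Their ranks lay in the weaker part of their lists.

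**Figure D2:**
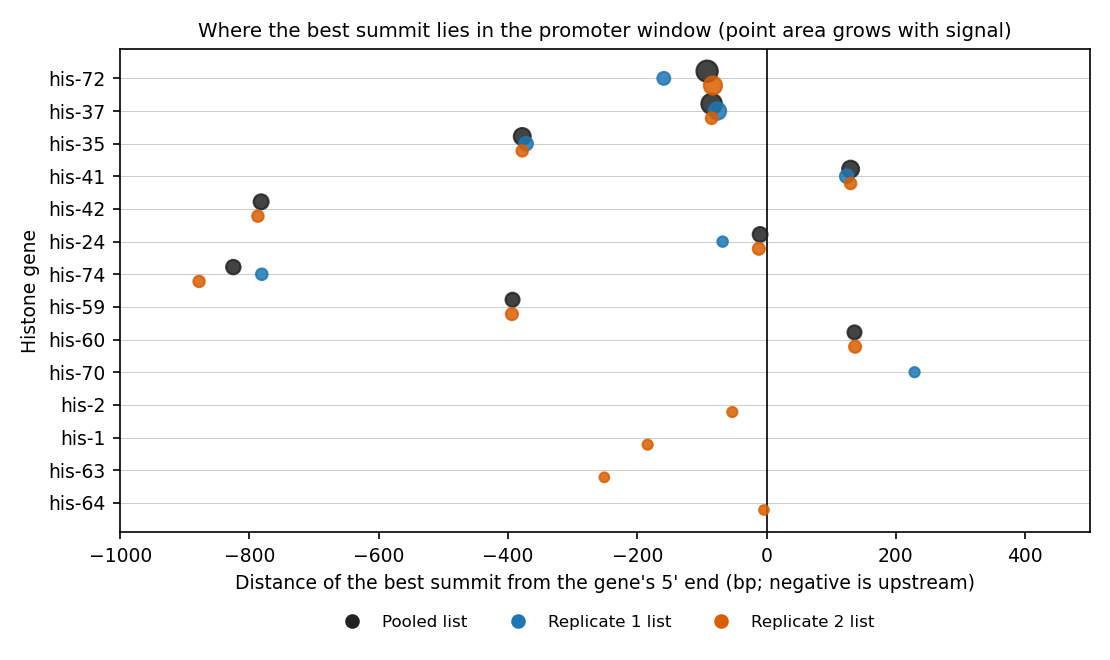
Distance of the best summit from the 5' end of each histone gene in bp (horizontal; negative is upstream), for the pooled list and each replicate list, with point area growing with signal. The strongest summits, at his-72 and his-37, lay 92 and 85 bp upstream, and the summits of his-41 and his-60 lay 130 and 136 bp inside the gene.

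By class and arrangement, 65 histone genes had a core histone gene within 5 kb and were called clustered, his-39 among them although its class is not annotated, and they made up 13 of 19 loci. The other 7 were the H1 gene his-24, the 5 genes annotated as H3.3 or H3.3-like (his-69, his-70, his-71, his-72 and his-74) and his-73. These were set apart by name, so his-69 and his-70 were not called clustered although they share a locus. A pooled summit was found at 6 of the 65 clustered genes (9.23%) and at 3 of the 7 variant and linker genes (42.9%), beside 42.7% of all genes. In this window the share of the variant and linker genes was thus close to that of all genes, and that of the clustered genes was below it. The groups also differed in how much of their window sequence is repeated in the genome, as given below. The part of this was not tested. The count of 3 variant and linker genes became 2 with a window of 500 bp upstream and 200 bp downstream (all genes 23.9%). It was also 2 when a summit counted only for the protein-coding gene with the nearest 5' end (all genes 37.5%). In both cases his-74 was the gene lost. The replicate 1 list had summits at 3 clustered genes and 4 variant and linker genes (all genes 42.1%). The replicate 2 list had them at 10 clustered genes and 3 variant and linker genes (all genes 40.9%). Among the clustered genes the pooled summits were at 1 of 17 H2A, 1 of 16 H2B, 2 of 15 H3 and 2 of 16 H4 genes. They lay in 3 of the 13 clustered loci. The H3.3 gene his-71 had no summit in its window in any list, and its nearest pooled summit, with a signal of 26.6 (rank 4817), was 1226 bp upstream.

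The genes also differed in structure. The coding sequence is split by introns in 8 histone genes (his-24, his-35, his-37, his-41, his-57, his-71, his-72 and his-74), and 6 of these had a pooled summit, all of them matched in both replicates. Among the 6, his-35 and his-41 share a region and lie in the same locus as his-37, so the genes are not independent. Of the other protein-coding genes with split coding sequence, 43.0% had a pooled summit and 11.97% matched summits. The exceptions among the histone genes were his-57 and his-71. Of the 64 genes coded in 1 exon, 3 had a pooled summit and none had matched summits of both replicates. Of the 631 other genes coded in 1 exon, 37.2% had a pooled summit and 10.9% matched summits. An exact copy of the coding sequence in another histone gene was found for 36 genes, of which none had a summit in any relaxed list, and 9 of the 36 with a sequence of their own (25.0%) had a pooled summit. Both shares of these groups were below the 42.7% of all genes. The promoter windows of the 36 genes with a copy are also mostly repeated sequence, and genes with such windows are compared below.

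Because near-identical copies can share reads, the sequence of each promoter window was cut into words of 30 bases, and the share of words that occur once in the reference, on either strand, was counted. The sources used here do not give how reads that match several places were treated in making the region lists. The median share was 20.4% over the histone genes and 100% over all genes, and 17 histone genes had no such word. In 45 histone genes the share was under 50%, and none of these had a pooled summit. Of the 541 other genes with a share under 50%, 21 (3.88%) had one. The 36 histone genes with an exact copy of their coding sequence were all among the 45, with shares of at most 24.7%. The histone genes made up 7.68% of all genes with so low a share.

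The median share of unique words was 16.2% over the clustered genes and 99.6% over the variant and linker genes. At 50% or more, a split that was not planned, 9 of 27 histone genes had a pooled summit (all genes 43.9%). Among the clustered genes it was 6 of 20. At higher shares of unique sequence the counts of histone genes were small. Between 50 and 80%, 3 of 13 histone genes had a pooled summit (other genes 19.8%). Between 80 and 95%, it was 0 of 6 (other genes 35.2%). At 95% or more, it was 6 of 8 (other genes 47.2%), and the same 6 genes had matched summits of both replicates, where 13.4% of the other genes did. Of these 8, his-69 and his-71 had none. Introns and unique sequence coincided in the 6 genes with matched summits, and the part of each in the summits was not tested. These 6 genes include the shared region of his-35 and his-41 and the neighbouring his-37, so the counts are not of independent genes.

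**Figure D3:**
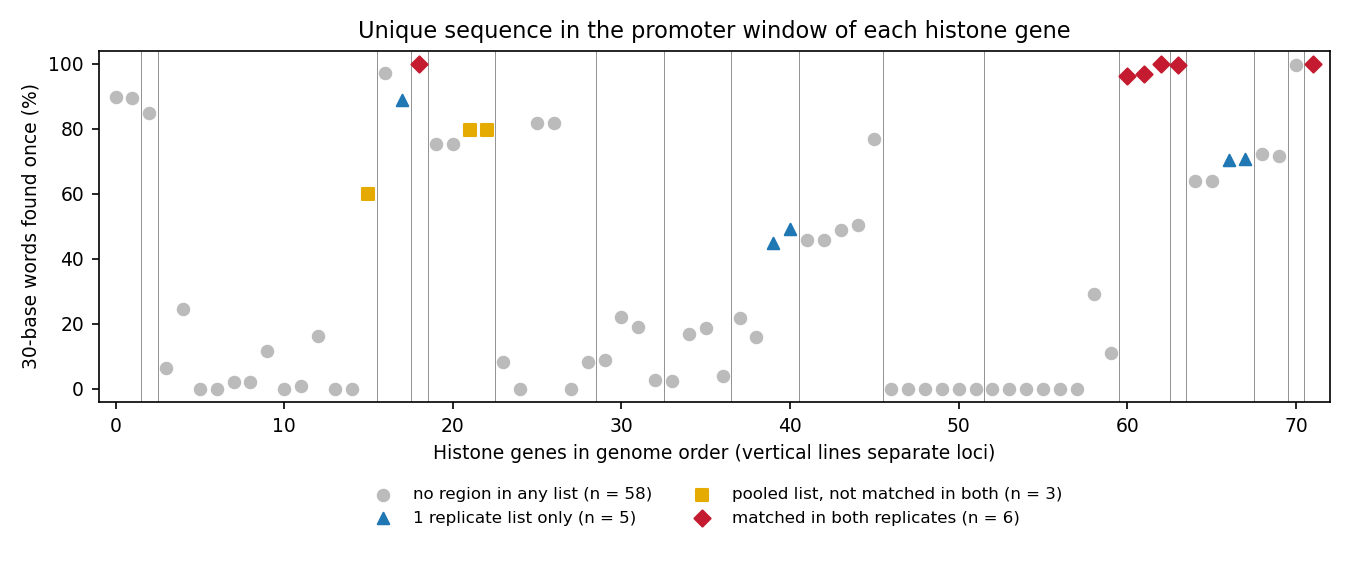
Share of 30-base words of the promoter window that occur once in the reference (vertical, percent) for the 72 histone genes in genome order, with loci separated by vertical lines and symbols for the lists that held a summit. The 6 genes matched in both replicates sit at 96.3% or more, and no gene under 50% had a pooled summit.

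**Figure D4:**
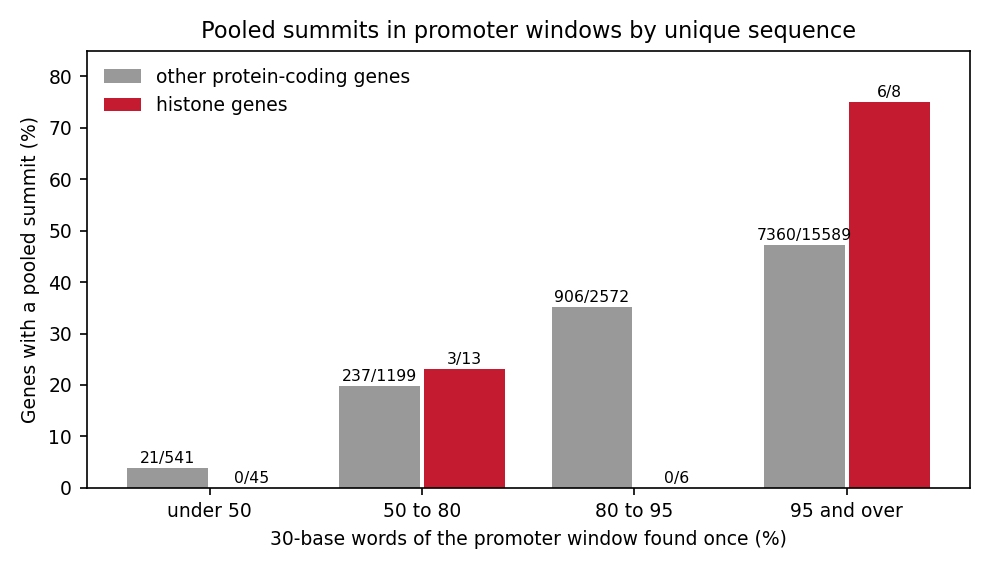
Percent of genes with a pooled summit in the promoter window (vertical), by the share of 30-base words found once (horizontal), for other protein-coding genes and for histone genes; the fractions give the genes with a summit over all genes of the class. The share of other genes with a summit went from 3.88% to 47.2% from the lowest to the highest class.

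Among the 19 loci, unique sequence and pooled summits did not always go together. The 13 genes of the chromosome II cluster (chrII:13817760-13828697, his-16 to his-42) had 1 summit among them, that of his-42 at its edge, and 6.83% of the words in the cluster were unique. The 6 genes of a chromosome V cluster (chrV:8847393-8854053, his-50 to his-53) had no unique word in any window. No pooled summit lay in that cluster or within 20 kb of it, where 0.213% of the words were unique, whereas there were 8 to 17 within 20 kb of each other locus. The locus of his-35, his-41 and his-37 was 98.0% unique and held 4 pooled summits within 1 kb of its span. By contrast, the locus of his-71 was 99.4% unique, that of his-67 and his-68 was 87.1% unique and that of his-38 and his-40 was 63.6% unique, and none of the 3 had a pooled summit within 1 kb. The locus of his-29 to his-34 was 48.5% unique and had 1. That summit was weak, with a signal of 16.2 (rank 28937), near the lowest of the list. Its nearest histone gene was his-31, 688 bp away, whose promoter window was 81.9% unique.

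Divergent pairs, with both 5' ends facing away from each other and at most 2000 bp apart, numbered 31 among the histone genes and took up 62 of the 72. There were 16 H2A/H2B pairs, 14 H3/H4 pairs and 1 H2A/H4 pair, and 227 to 368 bases (median 258) separated the 5' ends. A pooled summit lay in either promoter window at 2 pairs, his-35/his-41 and his-60/his-59, against 51.9% of all divergent pairs of protein-coding genes. None had a pooled summit between the 5' ends, against 28.3% of all pairs. No replicate 1 summit lay there (all pairs 28.6%), and replicate 2 summits lay there at 2 pairs (all pairs 25.6%), his-2/his-1 and his-63/his-64.

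The histone pairs had shorter gaps than all divergent pairs (median 258 against 685 bases) and more repeated sequence, and the part of each in that comparison was not tested. Of 303 other divergent pairs with a gap in the same range, 60 (19.8%) had a pooled summit between the 5' ends and 50.2% had one in a window. Replicate 1 summits lay between the 5' ends of 16.2% of them and replicate 2 summits of 16.5%. In 20 histone pairs under 50% of the words between the 5' ends were unique, and in 23 pairs the sequence was over 90% identical to that of another pair. With 50% or more of unique words, 0 of 11 histone pairs and 60 of 294 other pairs (20.4%) had a pooled summit between the 5' ends. For replicate 1 these were 0 of 11 and 49 of 294 (16.7%), and for replicate 2 they were 2 of 11 (18.2%) and 50 of 294 (17.0%). The replicate 2 list thus showed no lower share at these histone pairs, while the pooled and replicate 1 lists had none.

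The stretches between the 5' ends of 4 pairs are shown because they range from a pair with a nearby region in both replicates, through a pair with a replicate 2 region alone, to copies with none. Each is the plus strand, so the first gene named lies to the left and is read on the other strand. Capitals mark, on either strand, the TATA box sequence and the C-rich core given above, together with a repeat of G and A, GAGAGAG, so some appear as the reverse complement.
his-35/his-41, chrV:9545289-9545535: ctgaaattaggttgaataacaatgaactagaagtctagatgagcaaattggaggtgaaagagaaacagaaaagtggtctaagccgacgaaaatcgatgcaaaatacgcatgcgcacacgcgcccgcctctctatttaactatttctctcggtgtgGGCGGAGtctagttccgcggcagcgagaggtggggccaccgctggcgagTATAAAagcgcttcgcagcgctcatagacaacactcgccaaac
his-2/his-1, chrV:16042284-16042519: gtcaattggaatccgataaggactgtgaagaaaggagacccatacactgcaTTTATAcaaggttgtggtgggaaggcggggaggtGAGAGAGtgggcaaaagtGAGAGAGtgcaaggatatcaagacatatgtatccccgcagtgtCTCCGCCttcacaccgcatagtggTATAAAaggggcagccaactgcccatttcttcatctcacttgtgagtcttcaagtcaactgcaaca
his-50/his-49, chrV:8847705-8847942: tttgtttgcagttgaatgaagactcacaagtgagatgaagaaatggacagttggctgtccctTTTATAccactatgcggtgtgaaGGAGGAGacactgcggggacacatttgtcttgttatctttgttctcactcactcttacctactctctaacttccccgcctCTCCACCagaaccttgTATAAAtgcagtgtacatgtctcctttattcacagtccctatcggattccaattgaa
his-12/his-11, chrII:13821582-13821808: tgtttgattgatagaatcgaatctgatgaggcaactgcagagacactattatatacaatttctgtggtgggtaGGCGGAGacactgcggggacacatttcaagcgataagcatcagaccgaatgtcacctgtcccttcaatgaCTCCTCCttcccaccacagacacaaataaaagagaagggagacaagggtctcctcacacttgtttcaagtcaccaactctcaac
The his-35/his-41 stretch is 100% unique and at most 52.0% identical to any other pair. The his-2/his-1 stretch is 99.0% unique, and its closest match is 89.9% identical. The his-50/his-49 and his-12/his-11 stretches hold no unique word, and each has an exact copy at another pair.

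In all 31 histone pairs CTCCNCC lay between the 5' ends, and it did in 32 of the 303 other pairs with such a gap (10.6%). Forms of 27 bases from 3 pairs show how it varies. The first is that of his-50/his-49 that reads towards his-50, the next that of his-2/his-1 towards his-1, and the last that of his-35/his-41 towards his-35.
his-50/his-49: cagtgtCTCCTCCttcacaccgcatag
his-2/his-1: cagtgtCTCCGCCttcacaccgcatag
his-35/his-41: actagaCTCCGCCcacaccgagagaaa
Capitals mark CTCCNCC. The first and second forms differ in the base at N, and the last keeps the core and differs around it.

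In promoter sequences from 250 bases upstream to 50 downstream of the 5' end, searched on both strands, CTCCNCC was found at 66 of 72 histone genes and at 13.7% of all genes. It was in 63 of 65 clustered genes and 3 of 7 variant and linker genes. TATAAA was found at 47 histone genes (65.3%; all genes 37.9%). The E-box CACGTG was found at 1 histone gene (1.39%; all genes 5.82%) and in none of the 31 shared promoters (other pairs of that gap 4.29%). CATGTG was found at 10 genes (13.9%; all genes 9.97%) and GAGAGAG at 10 (all genes 6.78%).

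Within 50 bp of the 7 pooled summits, CACGTG was found at that of his-72 alone, beside 2.49% of all 30000 pooled summits. CATGTG was found at that of his-37 alone (all summits 3.50%). CTCCNCC was found at the summits of his-37, his-42 and his-60 (all summits 4.07%). At his-60 it lay in the coding sequence, which is shown in the direction of the gene with the match, on the opposite strand, in capitals.
his-60, chrIV:7487806-7487906, minus strand: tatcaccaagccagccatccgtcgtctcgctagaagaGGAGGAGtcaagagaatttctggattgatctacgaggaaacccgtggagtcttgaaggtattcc
Neither the shared summit of his-35 and his-41 nor those of his-24 and his-74 had any of the 5 sequences within 50 bp. A match of letters is a description, and its absence concerns this window alone.

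Histone genes outside the his- names and genes that handle histones were set beside these, from a list of 26. A pooled summit was found at 12 of the 26 (46.2%; all genes 42.7%). None had a thresholded summit (all genes 0.721%), and 5 of the 26 had matched summits of both replicates (all genes 11.9%). The H2A.Z gene htz-1 led them with a pooled signal of 37.6 (rank 699, and ranks 245 and 292 in replicates 1 and 2), close to the shared region of his-35 and his-41. It was followed by lin-53, a histone-binding protein of the retinoblastoma-binding family (32.9, rank 1390), whose replicates differed widely, with rank 27442 in replicate 1 and 452 in replicate 2. Next came the linker-like gene hil-7 (32.6, rank 1473; replicate ranks 5129 and 4548) and xnp-1, an ATRX-like chromatin remodeller (28.4, rank 3336; replicate ranks 7818 and 5397). They were followed by spt-16, a subunit of the FACT histone chaperone (25.4, rank 6058), and unc-85, an Asf1 histone chaperone (24.9, rank 6547). For spt-16 the replicate 1 rank was 21181 and replicate 2 had no summit, and for unc-85 replicate 1 had none and the replicate 2 rank was 4754. The strongest of these pooled signals was below those of his-72, his-37 and his-35/his-41. By replicate rank, htz-1 was ahead of his-35/his-41 in both lists (ranks 826 and 4527). It was ahead of his-72 in replicate 1 (rank 1834) and behind it in replicate 2 (rank 86). It was behind his-37 in replicate 1 (rank 87) and ahead of it in replicate 2 (rank 3536).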

How the data were processed

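Region lists in ce11 were used as deposited, with the signal in their seventh column as the authors gave it. Per the deposited readme texts, regions were derived from alignments with a control, and the thresholded list from the pooled and both replicate lists. The sources used here do not give the scaling of the signal, the aligner or the peak caller. The ce10 lists and a score column were not used. Depth is unknown, so no interval is given.

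Genes came from Ensembl release 115. Ensembl gives 50 distinct symbols to the 72 genes, so RefSeq names were joined by gene identifier. Divergent pairs, identity (Biopython 1.88), unique words and short sequences were computed from the RefSeq sequence of WBcel235, from which printed sequences also come, with Python 3.11.15, numpy 2.4.6 and pandas 2.3.3. Functions were tested on simulated data. No test was run: there is 1 group, and counts over genes are set beside those over all genes. The members and lists were chosen with earlier results of these data known. The genes named were those of the his- rule, up to 6 related genes with a pooled summit by signal, mdl-1, and neighbours whose window holds a member's best summit. The annotated genes at summits were named after their values were seen. Alternatives changed the window, the summit rule, the assignment, the 5' end, the list, the replicates, the distances and the word length.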

Additional observations from a re-analysis of the deposited data

How the results depend on the processing

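Of 61 values recomputed under alternatives, 49 kept to within 1.5 times the value reported and 12 did not. With a window of 2000 bp upstream, the pooled count of 9 histone genes became 14 (all genes 58.2%), by his-61, his-29, his-32, his-3 and his-71, and the clustered count of 6 became 10. The his-32 summit lay 1010 bp upstream, just outside the main window, with a signal of 16.2. Counting a summit only for the gene with the nearest 5' end left 6 of the 9 histone genes (all genes 37.5%), at the edge of the 1.5 limit. The replicate lists taken alone gave clustered counts from 3 to 10, thresholded counts of 1 and 1, pairs with a summit in a window from 1 to 4, pairs with one between the 5' ends from 0 to 2, and median ranks from 1834 to 4527. Matching replicate summits at most 50 bp apart left 3 of the 6 genes (all genes 5.78%), namely his-35, his-41 and his-37 of the same locus. The variant and linker genes his-72, his-24 and his-74 were lost, with best summits 76, 56 and 97 bp apart. Among genes with 95% or more of unique words, an alternative chosen after seeing the data, 3 clustered genes had a pooled summit, since 3 clustered genes have such windows. In the other cases the cause was not tested. With 2 replicates and no read counts, weak regions near the lowest signal of a list cannot be told from absent ones. No paired analysis was possible because both libraries belong to 1 group.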

Other observations

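The sequence CCCCGCA was looked up after it was seen in the stretches of his-37, his-24 and several pairs. In promoter sequences from 250 bases upstream to 50 downstream, on either strand, it was found at 32 of 72 histone genes (31 of 65 clustered genes, and his-24 among the 7 variant and linker genes) and at 0.935% of other protein-coding genes. Between the 5' ends it lay in 15 of 31 histone pairs and in 2.31% of other pairs with a gap in that range. Since it was chosen on these sequences, and many are copies of each other, the counts are a description.

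Also seen after the data were examined, the his-37 and his-24 promoters share a run of 19 bases on the gene's strand, tgtgtccccgcagggtggt, which begins 99 bases upstream of his-37 (chrV:9547006-9547024) and 60 bases upstream of his-24 (chrX:14490034-14490052). The run also occurs at other places in the reference, such as chrII:13016565-13016583. At his-37 the pooled and replicate 2 summits fall inside it, and the replicate 1 summit (chrV:9547029) lies just downstream of it. At his-24 the pooled and replicate 2 summits lie downstream of it, and the replicate 1 summit (chrX:14490026) lies upstream of it.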
